A study of Homo sapiens with 6 samples.

Results

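The genes described here are 10 human genes known for their expression at the onset of transcription in the cleavage embryo: ZSCAN4, the 6 homeobox genes LEUTX, TPRX1, DUXA, DUXB, ARGFX and DPRX, the histone demethylase gene KDM4E, and the MBD3-like genes MBD3L2 and MBD3L3. They were picked by name, with earlier results of these data known, from the 48183 gene names in the table of read counts, and counts of identifiers that share a name were summed. The 10 names stand for 11 of 61196 gene identifiers, since LEUTX is listed under 2.

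Transcript counts came from bulk RNA sequencing of human embryonic stem cells (ESCs) that carry an EOS reporter, a transgene whose GFP fluorescence marks the naive state. Naive cells correspond to the pre-implantation epiblast and primed cells to a later, post-implantation stage. All 4 naive libraries came from reporter cells converted to the naive state, expanded in PXGL medium (MEK inhibitor PD0325901, tankyrase inhibitor XAV939, protein kinase C inhibitor Gö6983 and human LIF) and sorted by FACS for the naive surface markers CD75 and SUSD2. The paper kept naive cells on mouse embryonic fibroblast feeders but later moved CA-p38 cells to feeder-free PXGL. It does not state whether the sequenced cells were on feeders. The naive libraries comprised 2 of cells induced with AICAR, an activator of the kinase AMPK (AICAR 1 and AICAR 2), 1 of cells induced with valproic acid, a histone deacetylase inhibitor (VPA), and 1 of cells in which doxycycline induced a constitutively active p38 kinase (CA-p38). VPA was given in a basal medium without the full PXGL set, and the other agents in PXGL. According to the paper, AICAR and doxycycline were withdrawn early and the cells were then expanded in PXGL without them. The libraries came from these later passages. Both primed libraries were untreated, feeder-free parental lines in StemFit AK02N, 1 of the EOS line, the source of the AICAR and VPA cells (primed EOS), and 1 of the CA-p38 EOS line (primed CA-p38), which carries the doxycycline-inducible transgene. The sample labels name the line H1, whereas the paper names H9. The paper gives a longer induction and later passages for the AICAR libraries than for VPA and CA-p38, which share a passage number, and the AICAR libraries were adjacent passages. They may be 1 induced culture sampled at different times, so AICAR 1 and AICAR 2 are not known to be separate inductions. With 1 library each for VPA, CA-p38 and either parental line, the inducing agent cannot be told apart from the passage, the length of induction or the culture.

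In the human embryo, the genome becomes broadly active a few divisions after fertilization, and the double homeobox factor DUX4 is known as an early activator of that programme. ZSCAN4, LEUTX, KDM4E and MBD3L2 are among the genes that DUX4 turns on. LEUTX, TPRX1, ARGFX and DPRX belong to a group of paired-like homeobox genes that arose by duplication of CRX in mammals, and DUXA and DUXB carry double homeoboxes like DUX4. In ESC cultures such genes are known to be expressed mainly in rare cells, and in bulk RNA fewer expressing cells and less RNA per cell cannot be told apart.

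Of the 10 genes, 7 lie on chromosome 19 (GRCh38, GENCODE). ZSCAN4 (ENSG00000180532) was at chr19:57668935-57679152 on the plus strand and DUXA at chr19:57154021-57167485 on the minus strand. MBD3L2 and MBD3L3 were neighbours on opposite strands, at chr19:7049321-7051735 and chr19:7056207-7069665. LEUTX (chr19:39776595-39786291), TPRX1 (chr19:47801232-47819051) and DPRX (chr19:53600777-53637014) completed the group on this chromosome. The others were DUXB at chr16:75693893-75701461, ARGFX at chr3:121567949-121590622 and KDM4E at chr11:95025258-95027596.

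Promoter sequences were at hand in RefSeq for 6 of the 10 genes, with 2 starts for LEUTX, each from 250 bases before to 50 bases after the transcription start (GRCh38.p14). They were searched on both strands for TAATCC, the core known to be bound by OTX- and CRX-type homeodomains, and for TATAAA, the TATA box. A match on the opposite strand reads GGATTA or TTTATA here. Matches of the motifs do not overlap in the windows shown. The 5 promoters printed here are those with a TATAAA match, 5′ to 3′ along the gene, with matches in capitals, so that the shared letters can be seen beside the counts that follow.
ZSCAN4: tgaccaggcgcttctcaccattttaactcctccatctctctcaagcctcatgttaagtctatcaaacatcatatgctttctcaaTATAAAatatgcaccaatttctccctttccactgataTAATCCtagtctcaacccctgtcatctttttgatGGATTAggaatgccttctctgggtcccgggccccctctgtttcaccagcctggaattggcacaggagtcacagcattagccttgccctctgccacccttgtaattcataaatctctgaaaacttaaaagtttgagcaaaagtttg
DUXA: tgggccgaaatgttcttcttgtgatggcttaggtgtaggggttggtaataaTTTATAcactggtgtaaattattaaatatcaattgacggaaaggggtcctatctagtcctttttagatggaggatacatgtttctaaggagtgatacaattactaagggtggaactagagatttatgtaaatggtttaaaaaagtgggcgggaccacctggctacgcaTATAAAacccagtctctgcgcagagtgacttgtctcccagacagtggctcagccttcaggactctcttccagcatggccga
DUXB: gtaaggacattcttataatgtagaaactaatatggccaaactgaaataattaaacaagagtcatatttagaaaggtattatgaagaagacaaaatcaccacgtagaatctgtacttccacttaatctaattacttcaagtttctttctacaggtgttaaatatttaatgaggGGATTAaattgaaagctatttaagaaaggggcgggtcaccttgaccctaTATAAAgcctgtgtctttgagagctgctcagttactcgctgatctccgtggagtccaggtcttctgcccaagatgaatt
MBD3L2: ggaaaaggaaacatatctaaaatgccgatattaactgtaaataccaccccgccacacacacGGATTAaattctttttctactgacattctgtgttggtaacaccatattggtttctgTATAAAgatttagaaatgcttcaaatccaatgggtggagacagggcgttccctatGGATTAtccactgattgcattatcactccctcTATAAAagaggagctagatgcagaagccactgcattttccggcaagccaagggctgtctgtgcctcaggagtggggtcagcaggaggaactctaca
MBD3L3: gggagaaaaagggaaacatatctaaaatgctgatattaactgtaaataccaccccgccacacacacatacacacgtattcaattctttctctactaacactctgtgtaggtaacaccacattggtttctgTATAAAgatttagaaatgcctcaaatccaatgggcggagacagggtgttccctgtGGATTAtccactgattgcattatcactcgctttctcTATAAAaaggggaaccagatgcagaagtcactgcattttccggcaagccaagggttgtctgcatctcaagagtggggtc
These windows were chr19:57668685-57668984 (ZSCAN4, plus strand), chr19:57167436-57167735 (DUXA, minus strand), chr16:75701412-75701711 (DUXB, minus strand), chr19:7049071-7049370 (MBD3L2, plus strand) and chr19:7058627-7058926 (MBD3L3, minus strand). TAATCC was found in at least 1 window of 5 of the 6 genes, in 5 of the 7 windows, against 6.36% of all 35116 promoters of this length. DUXA was the gene without it, and LEUTX had it at 1 of its starts, 96 bases before that start. TATAAA was found in 5 of the 7 windows, against 11.5% of all promoters, and the match nearest the start began 29 bases before it in DUXB and MBD3L3, 31 in DUXA, 46 in MBD3L2 and 166 in ZSCAN4. The MBD3L2 and MBD3L3 windows were identical at 257 of 282 aligned bases (91.1%), so their matches are not separate cases.

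Library totals ran from 46823699 counts (AICAR 2) to 54277064 (AICAR 1), and 3 counts, taken as the floor of detection, corresponded to 0.0553 to 0.0641 CPM (counts scaled to a common library size). The naive library with the highest levels of these genes was therefore the shallowest. That range of the floor used library totals alone, whereas the CPM values and fold bounds below also carry TMM scaling. The state labels were checked on marker genes: all 6 naive markers were higher and all 6 primed markers lower in naive libraries. SUSD2, among these naive markers, had been used to sort the naive cells, so its result was no separate check. The states were compared by edgeR's quasi-likelihood test over 26497 names, with 0.05 as the threshold of the adjusted p. In naive cells 6893 names were called higher and 7165 lower, 14058 in all, and over all names tested the median log2 fold change was 0.11. Apart from the AICAR libraries, the libraries of a state differed in agent or parental line, so adjusted p-values measure the spread between these libraries and not between repeats of 1 condition. For a single gene, 4 libraries against 2 allow no exact permutation p below 0.0667. Counting intervals and floors cover counting error only.

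Transcripts of the 10 genes were few in naive cells and close to absent in primed cells. Counts summed over them were 721 in VPA, 570 in CA-p38, 1353 in AICAR 1 and 1806 in AICAR 2, with 34 in the primed EOS and 51 in the primed CA-p38 library. As TMM-scaled CPM these sums were 13.8, 11.3, 24.9 and 36.3 in the naive libraries (mean 21.6 ± 11.5, SD, n = 4) and 0.687 and 1.04 in the primed libraries (0.865 ± 0.251, SD, n = 2). ARGFX alone made up 82.4% and 94.1% of the counts in primed cells but 20.3% to 52.6% in naive cells. Without ARGFX, the primed EOS library was left with 6 counts and primed CA-p38 with 3.

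**Figure D1:**
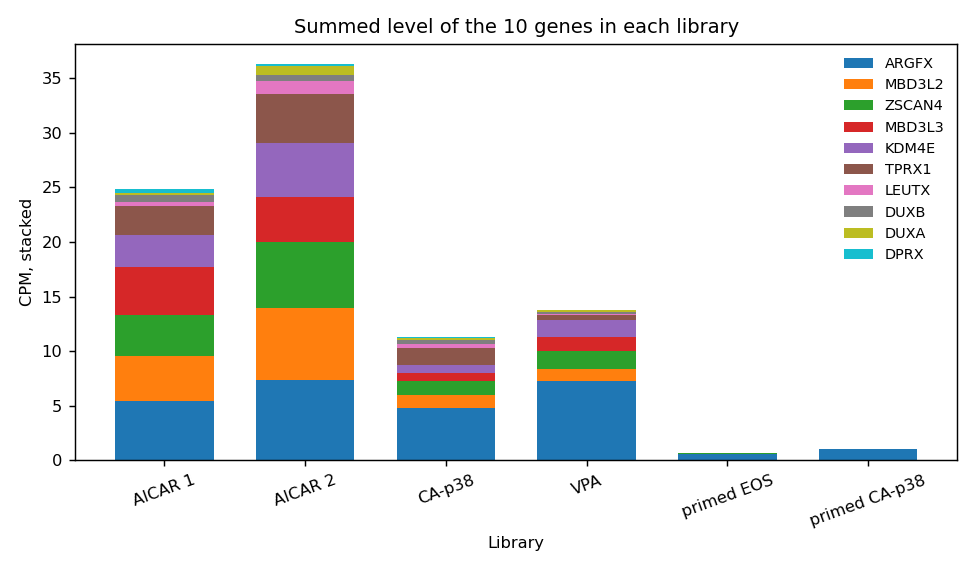
TMM-scaled CPM of the 10 genes stacked for each of the 6 libraries (bar height is the sum, colours are genes). The sums were 24.9 and 36.3 in the AICAR libraries, 11.3 and 13.8 in CA-p38 and VPA, and at most 1.04 in the primed libraries, where ARGFX made up nearly the whole bar.

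Of the 10 genes, 9 passed the filter on low counts and were tested, and all 9 were called higher in naive cells, where 26% of all names tested were called higher. In 9 of the 10, every naive library lay above both primed libraries, which held for 32.9% of all names tested. For LEUTX this rested on 1 count in VPA, under the floor of 3 counts. For DUXA it rested on 5 counts in CA-p38 against 2 in primed CA-p38. In 6 genes (LEUTX, TPRX1, DUXB, KDM4E, MBD3L2 and MBD3L3) no count was found in either primed library, as in 292 (1.1%) of the names tested. These 6 entered the test through their naive counts alone and so had to differ. Primed counts of ZSCAN4 and DUXA, at most 4, were also too low to pass the filter, so both calls were favoured in the same way. Only ARGFX had primed counts that could pass it. For the 6 genes at 0 in primed cells, a fold is given as a lower bound, computed with 3 counts in each primed library.

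**Figure D2:**
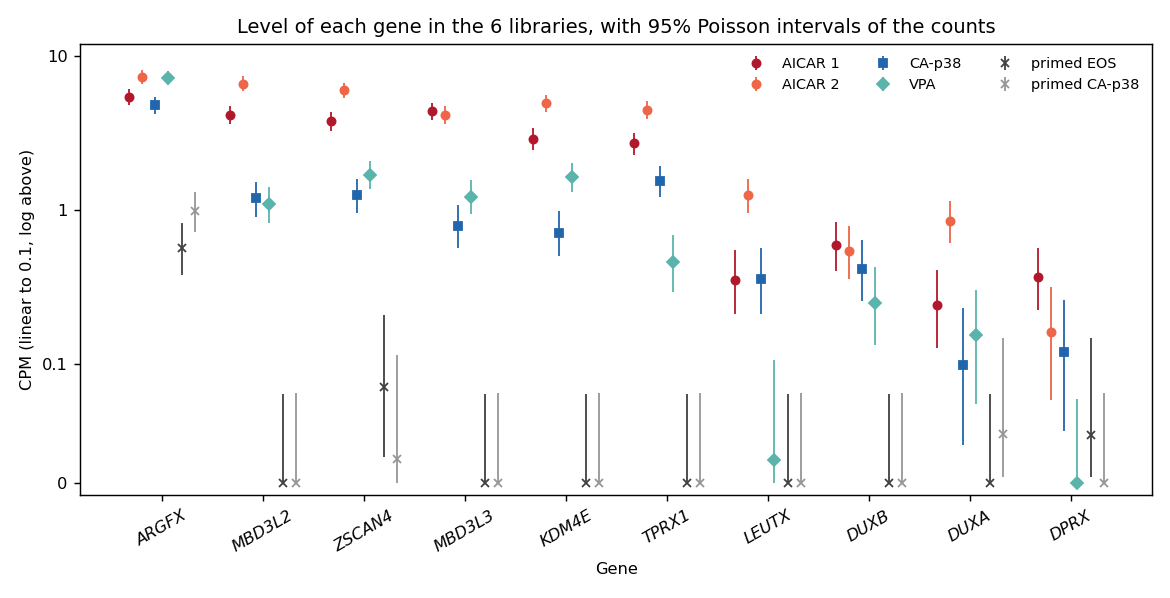
CPM of each gene in each library, genes ordered by mean naive level, on an axis that is linear up to 0.1 and logarithmic above, with 95% Poisson intervals of the counts as bars. Crosses (primed) lie at or near 0 for all genes but ARGFX, and circles (AICAR) lie above squares and diamonds (CA-p38, VPA) for all genes but ARGFX and LEUTX, where AICAR 1 (0.350) and CA-p38 (0.356) nearly coincide.

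ZSCAN4 encodes a SCAN-domain zinc-finger protein, and its mouse counterparts are known from telomere maintenance in ESCs. It had 89 counts in VPA, 63 in CA-p38, 205 in AICAR 1 and 299 in AICAR 2, with 4 in the primed EOS and 1 in the primed CA-p38 library. The groups did not overlap, and both AICAR libraries were well above the other naive libraries. Its mean level in naive cells was 3.18 ± 2.19 CPM (SD, n = 4), and primed cells had 0.0506 ± 0.0427 CPM (SD, n = 2). The log2 fold change was 5.90 ± 0.87 (SE, edgeR adjusted p = 8.6e-05), and the ratio of pooled counts was 62.4 with a counting interval of 26.6 to 192.8. The log2 fold change was 7.11 without primed EOS and 5.26 without primed CA-p38.

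ARGFX, a paired-like homeobox gene, had the highest counts of the 10 genes and was the only one with more than 4 counts in a primed library. Its counts were 379 in VPA, 243 in CA-p38, 295 in AICAR 1 and 366 in AICAR 2, with 28 in the primed EOS and 48 in the primed CA-p38 library. Naive and primed libraries did not overlap, but the order within the naive state was unlike that of ZSCAN4, with VPA and AICAR 2 close together at the top. The mean was 6.21 ± 1.29 CPM (SD, n = 4) against 0.773 ± 0.294 CPM (SD, n = 2), a log2 fold change of 3.0 ± 0.35 (SE, edgeR adjusted p = 9.67e-06). Across the 4 naive libraries ARGFX varied 1.53-fold, the least of the 10 genes.

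TPRX1, the tetrapeptide-repeat homeobox gene next to CRX, had 24 counts in VPA, 78 in CA-p38, 147 in AICAR 1 and 221 in AICAR 2, and 0 in both primed libraries. In CPM, AICAR 2 was 9.70 times VPA, the lowest naive library. The naive mean of 2.29 ± 1.71 CPM (SD, n = 4) was at least 37.5-fold higher than the primed floor (edgeR adjusted p = 0.000242). Of its 50-base stretches, 19.9% also occur in other transcripts, chiefly of TPRX2, so reads could be split between both. The name TPRX2P had 10 counts in VPA, 0 in CA-p38, 7 in AICAR 1 and 23 in AICAR 2, too few to be tested.

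LEUTX, a paired-like homeobox activator, had 1 count in VPA, 18 in CA-p38, 19 in AICAR 1 and 62 in AICAR 2, and 0 in both primed libraries. The VPA library was at the floor, and AICAR 1 (0.350 CPM) and CA-p38 (0.356 CPM) had nearly the same level. The mean of 0.493 ± 0.527 CPM (SD, n = 4) was at least 8.09-fold higher than the primed floor (edgeR adjusted p = 0.00972), a bound that was 3.96 without AICAR 2. With primed EOS or primed CA-p38 left out, the adjusted p was 0.0511 and 0.051. Of the 2 identifiers with this name, 1 had 0, 10, 11 and 40 counts in VPA, CA-p38, AICAR 1 and AICAR 2, and the other had 1, 8, 8 and 22.

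DUXB, a double homeobox gene, had 13 counts in VPA, 21 in CA-p38, 32 in AICAR 1 and 27 in AICAR 2, and 0 in both primed libraries. It was the most even of the genes that were at 0 in primed cells, varying 2.37-fold in CPM across the naive libraries. The mean of 0.449 ± 0.153 CPM (SD, n = 4) was at least 7.37-fold higher than the primed floor (edgeR adjusted p = 0.00072). The gene overlaps TERF2IP and RN7SL520P in the annotation.

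DUXA, the related double homeobox gene on chromosome 19, had 8 counts in VPA, 5 in CA-p38, 13 in AICAR 1 and 42 in AICAR 2, with 0 in the primed EOS and 2 in the primed CA-p38 library. Most of its counts came from AICAR 2. The pooled ratio was 16.2 with a counting interval of 4.31 to 136.2, and the log2 fold change was 3.88 ± 1.36 (SE, edgeR adjusted p = 0.0288). Without primed EOS the log2 fold change was 2.94 and the call was lost (adjusted p = 0.172), without primed CA-p38 it was 7.11 (adjusted p = 0.0452), and with the parental line as a block the adjusted p was 0.0829. Without AICAR 2 the ratio of mean CPM was 8.01.

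DPRX, a paired-like homeobox gene known as a repressor, was the weakest and did not pass the filter. Its counts were 0 in VPA, 6 in CA-p38, 20 in AICAR 1 and 8 in AICAR 2, with 2 in the primed EOS and 0 in the primed CA-p38 library. It was the only one of the 10 genes whose naive and primed libraries overlapped. The pooled ratio was 8.09 with a counting interval of 2.07 to 69.5, and no test was made. The ratio of mean CPM was 4.62 without AICAR 1 and 4.01 without primed CA-p38. The gene overlaps 4 others in the annotation, RN7SL317P and OSTCP3 among them.

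KDM4E encodes a demethylase of histone H3 from the KDM4 family. It had 86 counts in VPA, 36 in CA-p38, 158 in AICAR 1 and 245 in AICAR 2, and 0 in both primed libraries. Here CA-p38 was the lowest naive library, where it had been VPA for TPRX1. The mean of 2.55 ± 1.83 CPM (SD, n = 4) was at least 41.8-fold higher than the primed floor (edgeR adjusted p = 0.00011). Of its 50-base stretches, 18.2% also occur in KDM4F or KDM4D.

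MBD3L2 and MBD3L3 encode relatives of MBD3 without the methyl-CpG-binding domain, and MBD3L2 is known to displace MBD2 or MBD3 from the NuRD repressor complex. MBD3L2 had 57 counts in VPA, 60 in CA-p38, 225 in AICAR 1 and 329 in AICAR 2, and 0 in both primed libraries. MBD3L3 had 64, 40, 239 and 207 counts in the same naive libraries and 0 in both primed libraries. Both genes were separated into a low pair (VPA and CA-p38) and a high pair (AICAR). Means were 3.26 ± 2.65 CPM (SD, n = 4) for MBD3L2, at least 53.5-fold higher than the primed floor (edgeR adjusted p = 0.000168), and 2.64 ± 1.90 CPM (SD, n = 4) for MBD3L3, at least 43.4-fold higher (adjusted p = 0.000141). Without AICAR 2 the bound for MBD3L2 was 35.1.

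The division of reads between the MBD3-like copies is uncertain, since 87.5% of the 50-base stretches of MBD3L2 transcripts and 65.3% of those of MBD3L3 also occur in other genes, chiefly MBD3L2B, MBD3L4 and MBD3L5. Summed over these 5 copies, which does not depend on that division, counts were 220 in VPA, 248 in CA-p38, 1090 in AICAR 1 and 1247 in AICAR 2, and 0 in both primed libraries. The sum gave 4.20 CPM in VPA, 4.91 in CA-p38, 20.1 in AICAR 1 and 25.1 in AICAR 2. The low and the high pair were thus also seen in the sum. No shared stretch was found for ZSCAN4, LEUTX or DUXB, and the shared part was 7.79% for DPRX, 2.60% for ARGFX and 0.1% for DUXA.

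To compare levels between genes, CPM was divided by the length of the longest transcript in kilobases. On this scale the order of naive means was MBD3L2 (4.11), MBD3L3 (2.64), ZSCAN4 (1.42), ARGFX (1.23), TPRX1 (1.17), KDM4E (1.09), LEUTX (0.601), DUXB (0.402), DUXA (0.319) and DPRX (0.183). Across the 4 naive libraries, the ranges of all 9 pairs of neighbours in this order overlapped. Within libraries, MBD3L2 was above MBD3L3 in 4 of 4 and MBD3L3 above ZSCAN4 in 4 of 4, while the other 7 pairs changed order between libraries. Both of these orders rest on the uncertain division of reads between copies, the second through MBD3L3. The ends of the order were separated: MBD3L2 ran from 1.37 to 8.35 CPM per kilobase and DPRX from 0 to 0.416. In primed cells, ARGFX was first at 0.153 CPM per kilobase.

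Within the naive state, levels differed with the library. AICAR 2 was the highest naive library for 7 of the 10 genes and AICAR 1 for 3, whereas VPA and CA-p38 were each the lowest for 5. Both AICAR libraries were above both other naive libraries in 8 of the 10 genes, or 7 of the 9 tested, against 15.9% of all names tested and 16.3% of the names called higher in naive cells. The exceptions were ARGFX and LEUTX. DUXA passed the filter through the AICAR libraries alone, so its place among the 7 tested genes was fixed. This comparison has 2 libraries on either side, and no test was made. The same order held for 3 of 6 naive markers, 4 of 6 primed markers and 3 of 5 trophectoderm markers tested.

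The mean of the AICAR libraries was at least 2-fold the mean of CA-p38 and VPA in 8 of the 10 genes, or 7 of the 9 tested, against 4.51% of 26303 names tested that had a count in CA-p38 or VPA. DUXA, 1 of these 7, passed the filter through the AICAR libraries alone. The ratio was 4.73 for MBD3L2, 4.46 for DPRX, 4.31 for DUXA, 4.26 for LEUTX and 4.25 for MBD3L3. It was 3.57 for TPRX1, 3.33 for KDM4E and 3.32 for ZSCAN4, and lowest at 1.71 for DUXB and 1.06 for ARGFX. Summed over the genes without ARGFX, levels were 19.5 and 29 CPM in the AICAR libraries and 6.53 and 6.47 CPM in VPA and CA-p38. VPA cells shared their parental line with the AICAR cells and their passage number with CA-p38, with 1 library each for VPA and CA-p38. The reason for the difference was not tested.

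**Figure D3:**
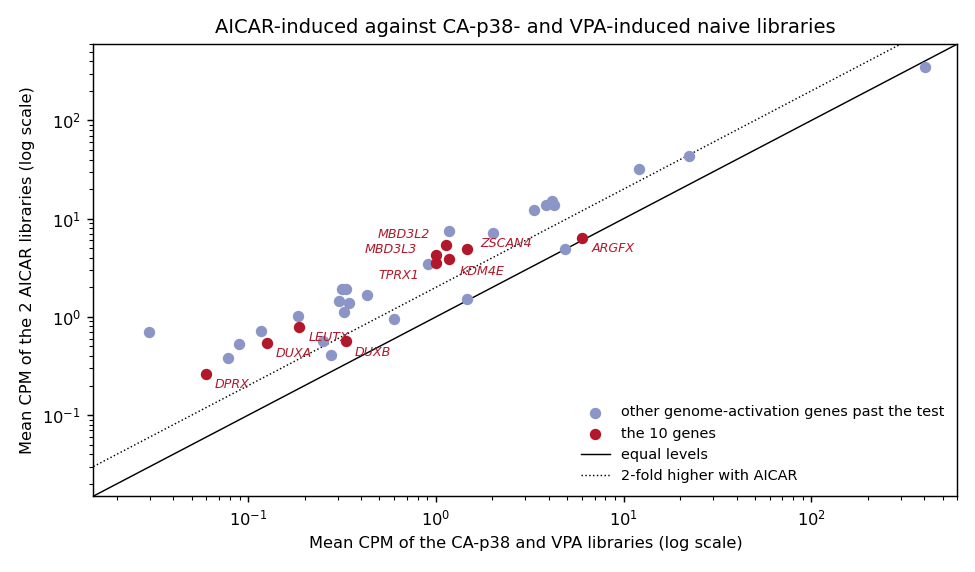
Mean CPM of the 2 AICAR libraries against mean CPM of the CA-p38 and VPA libraries, both on log scales, for the 10 genes (red, named) and the 26 other genome-activation genes called higher in naive cells (blue), with lines of equal level and of 2-fold difference. Of the 10 genes, ARGFX (1.06) and DUXB (1.71) lie under the 2-fold line and the other 8 above it, as do 20 of the 26 others. Among the others, TRIM48, PRAMEF1, PRAMEF2 and PRAMEF20 passed the filter through the AICAR libraries alone.

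Other genes of the genome-activation programme were described from a list of 32 names. Of the 27 tested, 26 were higher in naive cells and none lower. Of these 27, 18 had no count in either primed library, entered the test through their naive counts alone and so had to differ. Primed counts of DUX4, TRIM43B, NANOGNB, KHDC1L and RFPL2 were also too low to pass the filter, so these names entered through their naive counts too. The median log2 fold change of the 27 was 7.94, or 4.12 with genes at 0 in primed cells set to their lower bound, against 0.11 for all names. In 20 of the 27, both AICAR libraries were above both other naive libraries, against 15.9% of all names tested. MBD3L2B, MBD3L4 and MBD3L5, among the 27, share 75.4%, 100% and 91.2% of their 50-base stretches with other genes. They are thus not separate cases from MBD3L2 and MBD3L3. TRIM48, PRAMEF1, PRAMEF2 and PRAMEF20 passed the filter through the AICAR libraries alone, so their place among the 20 was fixed. RFPL2 was the gene without a call (log2 fold change 0.77, edgeR adjusted p = 0.616).

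By fitted log2 fold change, TRIM49, TRIM43 and KHDC1L came first in that list, although TRIM49 and TRIM43 had no primed count, so the order of the folds is not established. TRIM49, a tripartite-motif gene, had 209 counts in VPA, 229 in CA-p38, 661 in AICAR 1 and 773 in AICAR 2 and none in primed cells, at least 148.6-fold higher than the floor (edgeR adjusted p = 1e-05). TRIM43 had 171, 173, 560 and 715 counts in the same order and none in primed cells, at least 128.7-fold higher (adjusted p = 2.27e-05). Both had the low and high pairs seen for MBD3L2.

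KHDC1L, by contrast, was abundant in every naive library, with 15161 (AICAR 2) to 22627 (VPA) counts, with 12 in the primed EOS and 4 in the primed CA-p38 library. Its log2 fold change was 11.15 ± 0.29 (SE, edgeR adjusted p = 2.45e-11; 12.11 without primed EOS), and its AICAR mean was 0.873 times that of CA-p38 and VPA. The smallest called changes were those of the phosphate transporter gene SLC34A2 (log2 fold change 2.48, adjusted p = 0.00282) and of ZNF280A (3.77, adjusted p = 2.15e-06). In ZNF280A the AICAR mean (4.88 CPM) was close to that of CA-p38 and VPA (4.87 CPM).

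DUX4, the activator itself, was detected at a low level. It had 38 counts in VPA, 24 in CA-p38, 38 in AICAR 1 and 59 in AICAR 2, with 0 in the primed EOS and 4 in the primed CA-p38 library. The groups did not overlap, and the log2 fold change was 4.16 ± 0.90 (SE, edgeR adjusted p = 0.0017). It was 3.19 without primed EOS and 8.31 without primed CA-p38, where the call was kept. DUX4 lies in repeat arrays with many near-identical copies, so its counts are uncertain.

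Among 7 homeobox relatives, 5 were tested, of which 3 were higher and 2 lower in naive cells, and the median log2 fold change was 1.41. Besides DUX4, TPRXL was higher, with 79 counts in VPA, 67 in CA-p38, 151 in AICAR 1 and 116 in AICAR 2 with 2 in the primed EOS and 16 in the primed CA-p38 library (log2 fold change 3.42, edgeR adjusted p = 0.00066; 2.58 without primed EOS and 5.54 without primed CA-p38). CRX, the photoreceptor homeobox gene from which the paired-like genes arose, had 269 to 335 counts in naive cells with 98 in the primed EOS and 120 in the primed CA-p38 library (log2 fold change 1.41, adjusted p = 0.000516). The CRX paralogues OTX1 and OTX2, regulators of head and neural development, were lower, by log2 fold changes of -3.06 (adjusted p = 9.98e-05) and -1.14 (adjusted p = 0.000391).

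Of 7 relatives of KDM4E and the MBD3-like genes, 6 were tested, with 4 higher and 1 lower and a median log2 fold change of 0.74. KDM4A (log2 fold change 0.94), KDM4C (1.88), MBD3 (1.13) and MBD2 (0.54) were higher, with edgeR adjusted p-values of 7.71e-06, 1.25e-06, 1.75e-06 and 0.0308. The call of MBD2 was lost without VPA, without AICAR 1 and without either primed library, at adjusted p-values from 0.0559 to 0.159, with the AICAR libraries summed (0.0519) and with the parental line as a block (0.0618). MBD3L1, the relative not tested, had at most 12 counts in any library. KDM4D, which lies next to KDM4E, fell: it had 8 to 31 counts in naive libraries with 232 in the primed EOS and 137 in the primed CA-p38 library (log2 fold change -2.98, adjusted p = 0.00011). KDM4D and KDM4E thus changed in opposite directions.

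Known regulators of the DUX4 programme were read gene by gene. The list mixes the upstream factor DPPA2 with silencers such as LRIF1, so a shared direction or a median over it has no single meaning. Of 9, 2 were higher, 4 lower and 3 without a call, and the median log2 fold change was -0.28. DPPA2, which acts upstream of the mouse Dux gene, was higher (log2 fold change 4.02 ± 0.25 SE, edgeR adjusted p = 2.67e-08), while its partner DPPA4 was lower (-0.71, adjusted p = 2.97e-05). LRIF1, a silencer of the DUX4 repeat array, was higher (0.55, adjusted p = 0.00802), a call lost without primed EOS (adjusted p = 0.0814). The DNA methyltransferase gene DNMT3B (-1.95, adjusted p = 8.35e-09) and the chromatin assembly genes CHAF1A (-0.88, adjusted p = 1.15e-05) and CHAF1B (-0.48, adjusted p = 0.00446) were lower. DPPA4 and DNMT3B remained abundant in naive cells, at means of 433.6 and 749.9 CPM.

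**Figure D4:**
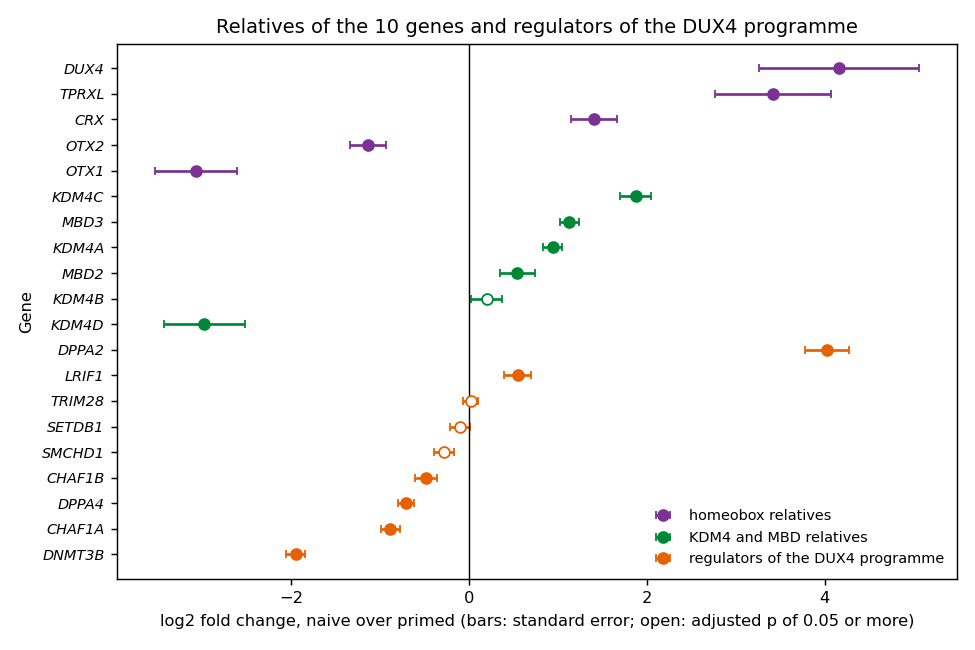
Fitted log2 fold change, naive over primed, with its standard error as a bar, for the tested homeobox relatives, KDM4 and MBD relatives, and regulators of the DUX4 programme; open symbols did not pass an adjusted p of 0.05. DUX4 (4.16) and DPPA2 (4.02) are highest, and OTX1 (-3.06) and KDM4D (-2.98) lowest.

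Annotated pseudogene copies of the 10 genes ranged from no counts to CPM above that of some of the 10 genes. Of 20 such names, 5 were tested and 3 were higher in naive cells, and the median log2 fold change was 2.10, and 7 had no count in any library. DPRXP4 had 12 to 58 counts in naive libraries and none in primed cells, at least 10.3-fold higher (edgeR adjusted p = 0.00066). For DUXAP8 (log2 fold change 1.70, adjusted p = 0.0219) and ARGFXP2 (2.10, adjusted p = 0.047) the call depended on single libraries. DUXAP8 lost it without AICAR 1, AICAR 2 or either primed library (adjusted p from 0.051 to 0.125), and ARGFXP2 without any 1 of the 6 libraries (0.0549 to 0.271). With the parental line as a block their adjusted p-values were 0.0654 and 0.0584. The naive means of DUXAP8 (0.833 CPM) and DPRXP4 (0.629 CPM) were above that of LEUTX (0.493 CPM), without division by transcript length. Summed levels of these copies were 2.10 to 3.02 CPM in naive and 0.869 and 1.06 CPM in primed libraries.

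Chromosomal neighbours were examined because 7 of the genes share a chromosome. Among the 18 distinct protein-coding genes taken as neighbours of the 10 genes, 15 were tested, of which 3 were higher in naive cells, 1 was lower and 11 had no call. MBD3L2 and MBD3L3 were passed over as neighbours of each other. MBD3L2B, MBD3L4 and MBD3L5, all called higher in naive cells, were not among the 18 neighbours either. The neighbour counts therefore do not cover the MBD3-like copies. CRX, 728 bases from TPRX1, was higher. NLRP12, 156727 bases from DPRX (log2 fold change 3.49, edgeR adjusted p = 1.19e-08), and ADGRE1, 108862 bases from MBD3L2 (6.42, adjusted p = 0.00506), were also higher but far off. KDM4D, 25739 bases from KDM4E, was lower. ZNF557, which begins 38 bases from MBD3L3, had no call (0.22, adjusted p = 0.515), nor had ZNF551, 2817 bases from ZSCAN4 (-0.26, adjusted p = 0.121). The 38 bases are counted from the outer boundary of the annotated MBD3L3 span, chr19:7056207-7069665. The MBD3L3 promoter window printed above, chr19:7058627-7058926, lies inside that span.

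Over the 6 libraries, the names whose log2 CPM followed ARGFX most closely were DESI2, ZGLP1 and AC034229, with Pearson r of 0.998 to 0.999. DESI2 had 161.1 CPM in VPA, 143.4 in CA-p38, 149.9 in AICAR 1 and 161.6 in AICAR 2, with 85.9 in the primed EOS and 93.0 in the primed CA-p38 library. An r over 0.95 was reached by 2596 of 26496 names, and the 6 points share their states.

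Markers of other cell types were read beside these values. Trophectoderm markers also differed between states: of 7, 5 were tested and 4 were higher in naive cells, and their summed level was 17.1 to 18.0 CPM in naive and 3.86 and 5.40 CPM in primed libraries. Within the naive state that sum was 17.1 in both AICAR libraries, 18.0 in VPA and 17.8 in CA-p38, but single markers differed. GATA3 had 20 counts in VPA, 36 in CA-p38, 133 in AICAR 1 and 115 in AICAR 2, and GATA2 and HAND1 were also higher in both AICAR libraries than in the others. KRT7 ran the other way, with 514, 469, 256 and 250 counts in the same order. CDX2 followed neither pattern and was highest in CA-p38, with 62, 124, 90 and 98 counts in that order. TP63 and VGLL1, both on that list, had at most 14 and 5 counts in any naive library. Fibroblast markers, of which 3 of 6 were lower and none higher in naive cells, summed to 30.8 to 72.8 CPM in naive and 175.1 and 192.2 CPM in primed libraries, with CA-p38 highest among the naive ones. Of 7 spermatid markers, 4 had no count in any library, and the sum reached at most 0.297 CPM in a naive library and 0.715 CPM in a primed one. The part of trophectoderm-like or fibroblast-like RNA in the levels of the 10 genes was not tested.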

How the data were processed

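Polyadenylated RNA of 6 libraries was sequenced. The authors deposited raw read counts per Ensembl gene identifier: reads were trimmed (the submitters' notes name Trim Galore 0.4.4 and cutadapt 1.15), mapped with Bowtie2 to Ensembl cDNA and noncoding RNA sequences (GRCh38), and summed per gene at a mapping quality of at least 1, so a read that fits several copies equally well may be dropped or misplaced. The voom normalization of the study is not applied in these deposited counts. The 23 columns of other studies and 26 spike-in rows (at most 1 count per library) were not used.

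Identifiers were summed by name. Naive (4) and primed (2) libraries were compared without covariates in edgeR 4.0.16 (R 4.3.3; TMM scaling, filterByExpr, glmQLFit and glmQLFTest), with Benjamini-Hochberg adjustment over 26497 names and a threshold of 0.05. CPM is TMM-scaled (factors 0.936 to 1.06). Counting intervals are exact at 95% (Poisson for levels, Clopper-Pearson for pooled ratios). Floors are 3 counts per library. Alternatives were DESeq2 1.42.0, limma-voom (limma 3.58.1), other scalings and filters, identifiers tested apart, summed AICAR libraries, a block for the parental line, and leaving out each library. Positions are from GENCODE release 44. Shared sequence was counted as 50-base stretches found in transcripts of other genes. Likeness to ARGFX used log2(CPM + 0.5). Promoters are from RefSeq (GRCh38.p14). Other steps ran in Python 3.11.15 (pandas 2.3.3, numpy 2.4.6, scipy 1.17.1), and figures in matplotlib 3.10.9.

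The 10 genes and all lists were chosen with earlier results of these data known. Named were all 10 genes, up to 3 highest and 3 lowest called genes of each other list and of the pseudogene copies, and the 3 names most like the gene with the most counts. Markers are given as counts and sums. RFPL2, TPRX2P, MBD3L1, the trophectoderm markers, the MBD3L copies and the neighbours were named after their values were seen.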

Additional observations from a re-analysis of the deposited data

How the results depend on the processing

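Among the 10 genes, ARGFX, ZSCAN4, TPRX1, DUXB, KDM4E, MBD3L2 and MBD3L3 kept their direction and call under every alternative that could test them, and no gene changed direction. LEUTX lost its call with limma-voom (edgeR's test replaced, adjusted p = 0.0926) and without either primed library. DUXA lost it with limma-voom (adjusted p = 0.0919), with the parental line as a block and without primed EOS. The number called was 9 of 9 in the main comparison, 7 of 9 with limma-voom, 8 of 9 with the block, 7 of 10 without primed EOS and 8 of 10 without primed CA-p38. A filter of at least 10 counts in every library left only ARGFX testable, and so 1 called, and it left 2 homeobox relatives, 4 other genome-activation genes and 1 pseudogene copy called, since names without primed counts cannot pass it. Pseudogene copies called fell from 3 to 1 with limma-voom and with the block, and ranged from 1 to 2 with each library left out. The cause was not tested. Of 621 alternatives run for the other named genes, 582 kept the call, 39 lost it and none reversed. The count of genes with both AICAR libraries above the other naive ones stayed at 8 under library totals and DESeq2 factors and was 9 with the top identifier of each name only, alternatives chosen after seeing the data. Replicate numbers are not shared between states, and the block for the parental line was the only pairing the labels allow. Levels near the floor, as for DPRX and DUXA, rest on few counts, and 2 primed libraries set the precision of all calls.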
